A study of Mus musculus with 4 samples.

Results

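Nos2, the inducible nitric oxide synthase, was followed together with the genes that make, use and break down arginine and polyamines: Arg1, Arg2, Ass1, Asl, Odc1, Srm, Sms, Amd1 and Sat1. These 10 genes were matched by symbol in tables of 22440 gene rows (mammosphere and bulk cells) and 11708 gene rows (Cbx8 knockdown and control cells). Each of the 10 had 1 row in the first table, and 7 of them had 1 row in the second. Nos2, Arg1 and Arg2 were not analysed in the knockdown comparison for that reason. All 11708 rows of the second table were tested by the authors and none was at 0 FPKM, whereas 18363 rows of the first were untested. Shares over all genes therefore rest on unlike selections of rows in the 2 tables. The set was drawn up by pathway with the FPKM fold changes of these tables already known, so it counts as chosen by those values, and its fold changes are given as a description with no test.

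All 4 libraries came from MMTV-Myc cells, a mouse mammary tumour line in which the mouse mammary tumour virus promoter drives a Myc transgene. The groups were mammosphere cells at day 20 with a genotype label of wild type, bulk cells at day 0 with the same genotype label, cells with Cbx8 knocked down by the hairpin sh68, and control cells, also with a genotype label of wild type, with a hairpin that one label calls shLuc and another shScr. Mammospheres were kept in suspension with EGF, bFGF and a Gem21 supplement and passaged as dissociated single cells, whereas the bulk medium held serum and insulin. Hairpins came by lentivirus under puromycin selection, and the labels do not say whether those cells grew attached. Each group was 1 library from 1 line, and the knockdown used 1 hairpin, so no difference below has a replicate error. The values are FPKM, which scales a transcript's reads to its length and to the reads mapped in the library, as the authors computed them, and depth is unknown.

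Arginine is the shared substrate of competing enzymes. Nitric oxide synthases turn it into nitric oxide and citrulline, and Ass1 and Asl rebuild arginine from that citrulline. Arginases turn it into urea and ornithine, and ornithine decarboxylase (Odc1) makes the first polyamine, putrescine, from ornithine. The aminopropyl groups that Srm and Sms add to make spermidine and spermine come from S-adenosylmethionine that Amd1 has decarboxylated, and Sat1 acetylates polyamines for export or breakdown. Odc1 is a textbook direct target of Myc, and Nos2 and Arg1 are widely used to describe activated macrophages, in which they compete for arginine.

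Cbx8, the Polycomb subunit that the hairpin targets, was at 1.23 FPKM in the knockdown library and 4.74 FPKM in the control library. It was at 1.48 FPKM in mammospheres and 3.46 FPKM in bulk cells. Myc was at 361 FPKM in mammospheres against 815 FPKM in bulk cells, and at 301 FPKM in knockdown cells against 511 FPKM in control cells. The labels do not say whether reads of the Myc transgene are counted in this row, so its level may not be that of the cells' own gene alone. The epithelial adhesion genes Epcam and Cdh1 were low in every library, at 0.0908 and 0.0135 FPKM in mammospheres, 1.06 and 1.04 FPKM in bulk cells, 0.0427 and 0.206 FPKM in knockdown cells and 0.338 and 0.283 FPKM in control cells. The luminal keratin Krt18 was at 58.2 FPKM in mammospheres, 570.4 FPKM in bulk cells, 256 FPKM in knockdown cells and 261 FPKM in control cells. Krt19, unlike Krt18, was nearly level at 9.65 FPKM in mammospheres and 9.08 FPKM in bulk cells. Krt14 was lower in mammospheres as Krt18 was, at 0.0534 FPKM against 18.8 FPKM in bulk cells. In the other comparison Krt14 was at 10.5 FPKM in knockdown cells and 1.09 FPKM in control cells. Of 6 epithelial markers measured, 4 were lower in mammospheres by the 2-fold limit used below (17.3% of all genes were), and the list summed to 73.1 FPKM in mammospheres and 936 FPKM in bulk cells. Of 4 measured in the knockdown comparison, 1 was higher (Krt14) and 0 were lower, beside 0.299% and 0.449% of all genes. The 2 tables are separate Cuffdiff comparisons, and folds were taken only within a table.

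In mammospheres the Nos2 transcript was about 10.2-fold higher than in bulk cells, whereas Arg1 was close to nil and Ass1 was 8.97-fold lower. The polyamine pathway differed less. Odc1, Amd1 and Sat1 were lower by 1.60-fold, 1.61-fold and 2.17-fold as plain ratios, while Srm and Sms were within 1.12-fold of bulk cells. In Cbx8 knockdown cells the plain ratios of the 7 genes measured were at most 1.17-fold from the control in either direction.

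**Figure D1:**
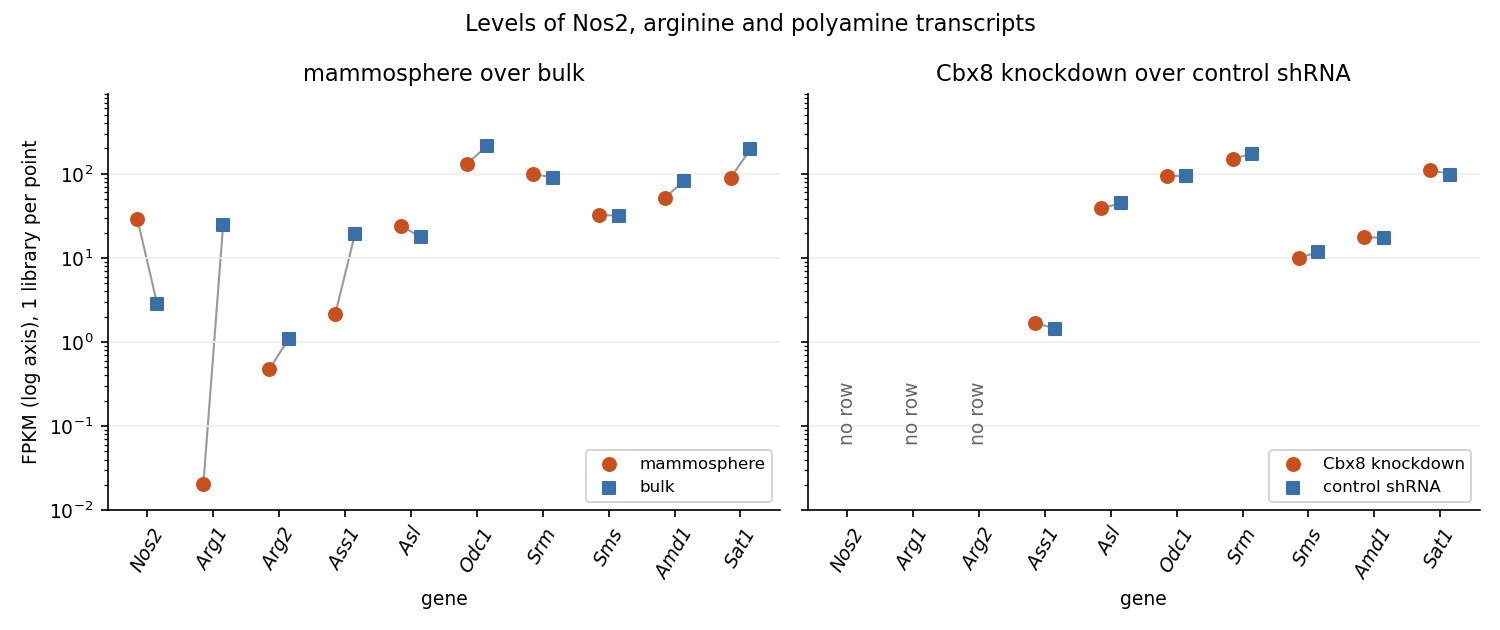
FPKM of each gene on a log axis, with mammosphere (circles) beside bulk (squares) on the left and Cbx8 knockdown (circles) beside control shRNA (squares) on the right; each point is 1 library. Nos2 stands at 28.7 FPKM in mammospheres over 2.81 FPKM in bulk cells, Arg1 and Ass1 lie the other way, and the pairs on the right nearly coincide.

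Folds here are log2 values with 1 FPKM added to both libraries, which understates the change of low genes, and a gene was counted past a limit of 2-fold where either library held at least 1 FPKM of it. By that rule 1 of the 10 genes (Nos2) was higher and 3 (Arg1, Ass1 and Sat1) were lower in mammospheres, with a median log2 fold change of -0.59. Over all 11603 genes measured, 3.54% were higher and 17.3% lower, with a median of -0.24. Among the 4045 rows that the authors tested, 3.73% were higher and 16.2% lower (19.9% in either direction), and of the 7 genes among them 1 was higher (Nos2) and 1 lower (Sat1). By a q-value under 0.05 in the authors' deposited table, 1.73% were higher and 10.2% lower (11.9% in either direction), and Nos2 was the 1 gene of the 10 called. The choice of the genes used this contrast, so nothing is read from these shares. Genes at 1 FPKM or more in both libraries had a median of -0.19, and values relative to that shift are given below where they matter. Centred on it, 653 genes were higher and 1548 lower, against 411 and 2002 as deposited. Scaling both libraries to the same upper quartile gave 811 genes higher and 1568 lower.

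**Figure D2:**
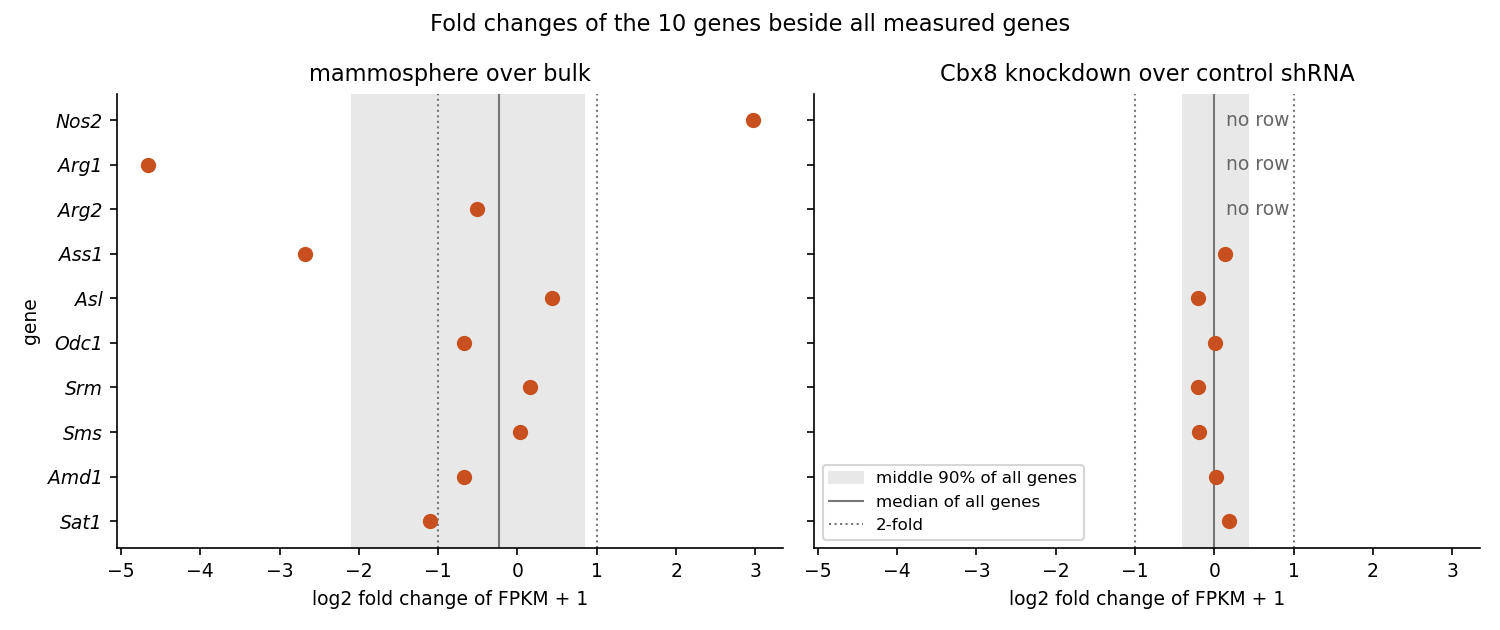
Log2 fold change of FPKM + 1 for each gene, mammosphere over bulk on the left and Cbx8 knockdown over control shRNA on the right; the grey band runs from percentile 5 to percentile 95 of all measured genes, the solid line is their median and the dotted lines mark 2-fold. Nos2 at 2.97, Arg1 at -4.66 and Ass1 at -2.68 lie outside the band on the left, and the 7 points on the right lie inside theirs.

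Nos2 (mm9 chromosome 11, 78734360 to 78773626) was at 28.7 FPKM in mammospheres and 2.81 FPKM in bulk cells. Its log2 fold change was 2.97, or 3.15 relative to the shift, which was rank 14 from the highest of 11603 genes. In level it passed 78.6% of the genes at 1 FPKM or more in the mammosphere library and 13.6% of those in the bulk library. The q-value in the authors' deposited table was 4.40e-06. Nos1, the neuronal isoform, was at 0.0848 FPKM in mammospheres and 0.639 FPKM in bulk cells, and Nos3, the endothelial isoform, at 0.2 FPKM in mammospheres and 0.275 FPKM in bulk cells, so Nos2 was the isoform with the highest level in either library.

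The 5 genes closest to Nos2 in the size of this change, among 4155 gene symbols tested by the authors with at least 5 FPKM in the higher library, were Gpt2, Fetub, Nqo1, Fabp5 and Csf3. Likeness here is the absolute difference in log2 fold change over 1 comparison of 2 libraries, and it ran from 0.09 for Gpt2 to 0.26 for Csf3. Gpt2, a mitochondrial alanine aminotransferase, was at 29.4 FPKM in mammospheres and 3.13 FPKM in bulk cells. Csf3, the granulocyte growth factor, was at 124 FPKM in mammospheres and 18.2 FPKM in bulk cells.

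Nitric oxide synthases need the cofactor tetrahydrobiopterin, and 2 of its genes were higher in mammospheres. Gchfr, the feedback regulator of the first enzyme, was at 146 FPKM in mammospheres and 58.9 FPKM in bulk cells (log2 fold change 1.3). Qdpr, which regenerates the cofactor, was at 54.0 FPKM in mammospheres and 22.2 FPKM in bulk cells (1.25). Gch1, the first enzyme itself, was at 27.7 FPKM in mammospheres and 15.7 FPKM in bulk cells (0.78), and Pcbd1, a recycling enzyme, at 0.0573 FPKM in mammospheres and 2.75 FPKM in bulk cells (-1.83). Ddah2, Spr and Pts of the same list had negative values short of 2-fold, at -0.83, -0.72 and -0.58. Of the 10 measured, 5 had positive and 5 negative values. Of 10 measured genes of this list 2 were higher and 1 lower (3 higher with equal upper quartiles). Their median was -0.06 and turned to 0.12 after centring. Among all genes measured 3.54% were higher and 17.3% lower, with a median of -0.24. The count among 10 is therefore not read as a result. In the authors' deposited table the q-values of Gchfr and Qdpr were 0.126 and 0.158.

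The transcripts of cytokines, receptors, kinases and transcription factors of the pathways known to induce Nos2 lay on the other side. Of 17 such genes measured, 14 were lower in mammospheres and none higher, with a median of -1.57, beside 17.3% of all genes lower and a median of -0.24. After centring 13 were lower, and with equal upper quartiles 11. Leukocyte markers lay the same way, with 13 of 14 lower and a median of -3.03, and Cd14 stands in both lists; their part in these values was not tested. Irf1, an interferon-induced factor that binds the Nos2 promoter, was at 16.9 FPKM in mammospheres and 164 FPKM in bulk cells. Nfkbia, the NF-kappaB inhibitor and target, was at 88.0 FPKM in mammospheres and 488 FPKM in bulk cells. The cytokines Il1b and Tnf were at 0.164 and 0.0249 FPKM in mammospheres, against 23.2 and 13.0 FPKM in bulk cells. Tlr4, the endotoxin receptor, was the 1 member with a positive value, at 15.2 FPKM in mammospheres and 10.8 FPKM in bulk cells (0.46), and is named for that after its value was seen.

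Of the arginases, Arg1 was past 2-fold and Arg2 was not. Arg1, the cytosolic arginase (chromosome 10, 24635012 to 24647276), was at 0.0205 FPKM in mammospheres and 24.8 FPKM in bulk cells, a log2 fold change of -4.66 at rank 68 from the lowest of 11603 genes. Arg2, the mitochondrial arginase (chromosome 12, 80231774 to 80273445), was at 0.475 FPKM in mammospheres and 1.10 FPKM in bulk cells (-0.51). The authors left both rows untested. Arg1 was thus the main arginase transcript in bulk cells, whereas in mammospheres both were under 1 FPKM.

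Argininosuccinate synthase Ass1 (chromosome 2, 31325789 to 31376190), which joins citrulline to aspartate, was at 2.13 FPKM in mammospheres and 19.1 FPKM in bulk cells (-2.68; rank 359 from the lowest; untested by the authors). Argininosuccinate lyase Asl (chromosome 5, 130487372 to 130500201), which completes the same recycling, was at 24.2 FPKM in mammospheres and 17.6 FPKM in bulk cells (0.44). Asl did not pass 2-fold. The ratio of these consecutive enzymes, Asl to Ass1, was 11.3 in mammospheres and 0.921 in bulk cells. In the knockdown table the ratio was 22.8 in knockdown cells and 30.8 in control cells, so Asl stood far above Ass1 in both.

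Ratios within 1 library do not depend on how libraries were scaled to each other. Nos2 stood at 1402 times Arg1 in mammospheres, where Arg1 was near 0, and at 0.113 of Arg1 in bulk cells. It stood at 13.5 times Ass1 in mammospheres and 0.147 of Ass1 in bulk cells. The order of the arginine genes by FPKM was Nos2, Asl, Ass1, Arg2 and Arg1 from high to low in mammospheres, and Arg1, Ass1, Asl, Nos2 and Arg2 in bulk cells.

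**Figure D3:**
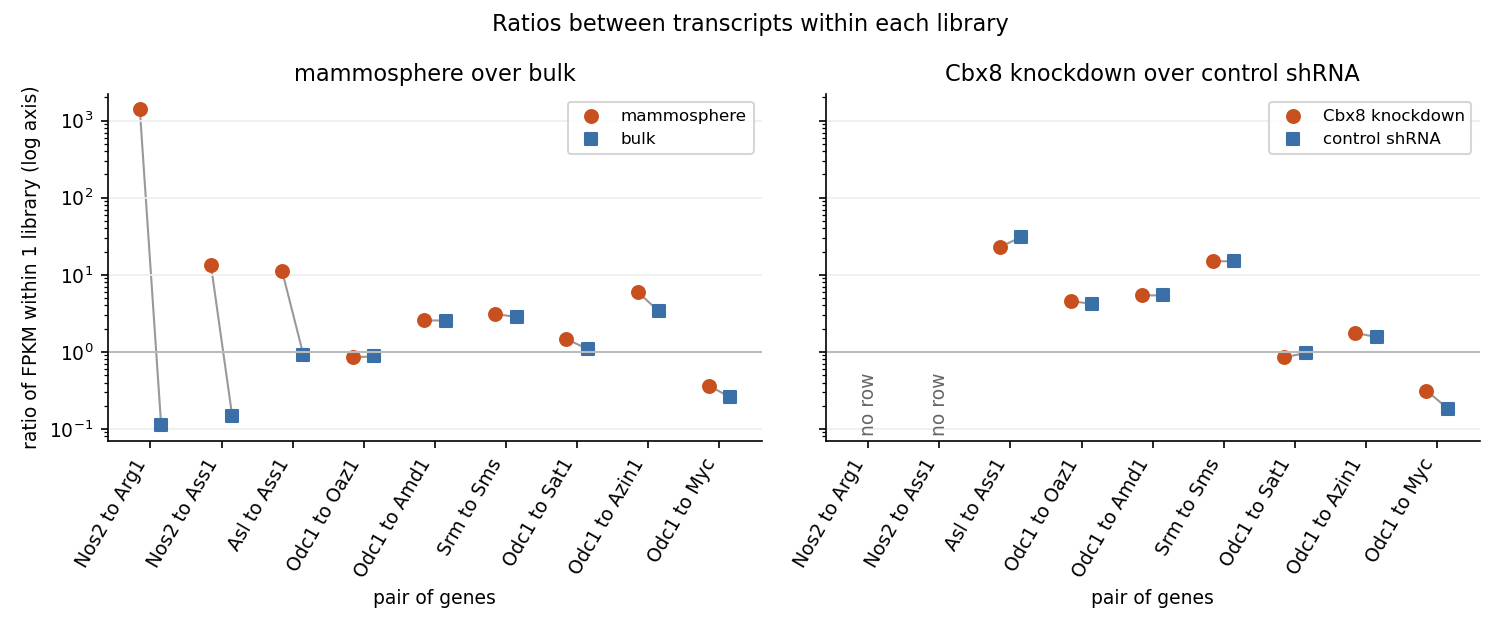
Ratio of the FPKM of 2 genes within the same library on a log axis, mammosphere (circles) beside bulk (squares) on the left and Cbx8 knockdown (circles) beside control shRNA (squares) on the right. Ratios with Nos2 or Ass1 spread widely between mammosphere and bulk cells, whereas Odc1 to Oaz1 (0.856 in mammospheres and 0.871 in bulk cells) and Odc1 to Amd1 (2.56 in mammospheres and 2.55 in bulk cells) nearly coincide.

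Macrophages express Arg1 and Nos2, and leukocyte markers differed between these libraries too. Of 14 macrophage and leukocyte markers, 13 were lower and 1 higher in mammospheres, and the list summed to 109.7 FPKM in mammospheres and 505 FPKM in bulk cells, of which Cd68 alone gave 101 FPKM in mammospheres and 35.5 FPKM in bulk cells. In mammospheres 12 of the 14 were under 1 FPKM and 4 were listed at 0 (Ctss, Tyrobp, Fcer1g and Emr1), while in bulk cells Cd74 was at 164, Lyz2 at 122 and Tyrobp at 23.7 FPKM. Arg1 and Ass1 were lower in mammospheres too and Nos2 was not. Also lower in mammospheres were 4 of 6 measured epithelial markers, and 17.3% of all genes. The part of leukocyte RNA in the Arg1 and Ass1 values was not tested, and in a bulk sample fewer cells of a type and less RNA per cell cannot be told apart.

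The promoter windows that the RefSeq table (build GRCm38.p6) holds for these genes covered Ass1, Odc1, Sms, Amd1 and Sat1, 5 of 10. The 250 bases before the annotated start are shown for the gene of these 5 with the largest fold change (Ass1), for the pair with nearly equal folds in both comparisons (Odc1 and Amd1), and for the gene whose level was almost equal in mammospheres and bulk cells (Sms, first of 2 annotated starts). Both strands were searched for CACGTG, the E-box bound by Myc and Max, for the kappaB consensus and for TATAAA, and capitals mark a match. The windows are chr2:31470020-31470269 (plus strand), chr12:17544623-17544872 (plus), chr10:40302189-40302438 (minus) and chrX:157492288-157492537 (minus), in the order printed.
Ass1: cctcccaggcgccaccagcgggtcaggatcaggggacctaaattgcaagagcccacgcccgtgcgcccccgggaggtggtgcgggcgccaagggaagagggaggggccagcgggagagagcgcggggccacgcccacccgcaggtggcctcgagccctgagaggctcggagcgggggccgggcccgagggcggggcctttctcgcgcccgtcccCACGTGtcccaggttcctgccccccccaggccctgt
Odc1: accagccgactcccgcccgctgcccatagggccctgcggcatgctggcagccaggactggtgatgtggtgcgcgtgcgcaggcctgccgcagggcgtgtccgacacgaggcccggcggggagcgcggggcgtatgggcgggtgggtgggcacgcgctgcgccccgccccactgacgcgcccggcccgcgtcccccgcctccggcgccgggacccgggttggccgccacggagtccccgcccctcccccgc
Amd1: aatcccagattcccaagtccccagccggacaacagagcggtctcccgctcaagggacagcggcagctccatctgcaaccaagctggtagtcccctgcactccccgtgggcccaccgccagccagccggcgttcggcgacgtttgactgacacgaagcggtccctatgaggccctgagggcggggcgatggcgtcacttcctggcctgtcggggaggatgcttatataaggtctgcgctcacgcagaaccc
Sms: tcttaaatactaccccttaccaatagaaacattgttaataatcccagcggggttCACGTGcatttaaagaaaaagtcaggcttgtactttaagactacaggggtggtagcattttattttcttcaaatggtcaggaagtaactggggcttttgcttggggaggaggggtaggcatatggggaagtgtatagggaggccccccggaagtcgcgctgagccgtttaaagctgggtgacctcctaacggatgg

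The Ass1 window holds 1 CACGTG, whose first base lies 36 bases before the start. The first Sms window holds 1, with its first base 196 bases before the start, and the window of the second Sms start holds 1 kappaB match, 103 bases before it. None of these motifs was found in these windows of Odc1, Amd1 or Sat1, which says nothing of sequence outside them. In all, 6.02% of the 32851 windows in the table hold CACGTG, 3.9% kappaB and 12.4% TATAAA. A match is a description of the letters only: Ass1 and Sms share the E-box letters and had log2 fold changes of -2.68 and 0.03.

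Odc1, Srm, Amd1 and Sat1 were among the abundant transcripts in both mammospheres and bulk cells. Odc1, which opens the pathway (chromosome 12, 17551678 to 17558308), was at 132 FPKM in mammospheres and 211 FPKM in bulk cells (-0.67, or -0.49 relative to the shift). In level it passed 96.6% of expressed genes in mammospheres and 97.2% in bulk cells. Amd1 (chromosome 10, 40007263 to 40021994) was at 51.5 FPKM in mammospheres and 83.0 FPKM in bulk cells (-0.68). The q-values of Odc1 and Amd1 in the authors' deposited table were 0.662 and 0.429, and no alternative brought either to 2-fold. Amd1 has a near-identical intronless copy, Amd2, and the labels do not say how reads were assigned between them, so its level is uncertain.

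The aminopropyl transferases downstream were nearly level. Spermidine synthase Srm (chromosome 4, 147965621 to 147968728) was at 100.5 FPKM in mammospheres and 89.9 FPKM in bulk cells (0.16). Spermine synthase Sms (chromosome X, 153881885 to 153929978) was at 32.4 FPKM in mammospheres and 31.8 FPKM in bulk cells (0.03). Their ratio, Srm to Sms, was 3.10 in mammospheres and 2.83 in bulk cells.

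Sat1, the spermidine and spermine acetyltransferase of the breakdown arm (chromosome X, 151647681 to 151650952), was at 89.9 FPKM in mammospheres and 195 FPKM in bulk cells. Its log2 fold change of -1.11 passed 2-fold as deposited, but was -0.92 relative to the shift and -0.80 with equal upper quartiles. The q-value in the authors' deposited table was 0.212. Odc1 to Sat1, a synthesis to breakdown ratio of transcripts, was 1.47 in mammospheres and 1.09 in bulk cells.

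Of 7 measured genes that regulate, oxidise or carry polyamines, 2 were lower in mammospheres and none higher (1 lower after centring or with equal upper quartiles), with a median of -0.10. Over all genes 17.3% were lower and 3.54% higher, so the count among 7 is not read as a result. Azin1, which protects ornithine decarboxylase by binding antizyme, was at 21.9 FPKM in mammospheres and 63.0 FPKM in bulk cells (-1.48), with q = 0.00141 in the authors' deposited table. Smox, the spermine oxidase, was at 11.3 FPKM in mammospheres and 25.4 FPKM in bulk cells (-1.10), with q = 0.00187 there. Oaz1, the antizyme that sends ornithine decarboxylase to the proteasome, was at 154 FPKM in mammospheres and 243 FPKM in bulk cells (-0.65), nearly the fold of Odc1. Odc1 to Oaz1 was accordingly 0.856 in mammospheres and 0.871 in bulk cells, whereas Odc1 to Azin1 was 6.03 in mammospheres and 3.35 in bulk cells.

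Mat2a, which makes S-adenosylmethionine, was at 221 FPKM in mammospheres and 93.7 FPKM in bulk cells (1.23) and was the 1 of 8 methionine and S-adenosylmethionine genes past 2-fold (2 with centring or equal upper quartiles). Of 8 transport genes 1 was higher and 1 lower (2 higher after centring and 3 with equal upper quartiles). Over all genes 3.54% were higher and 17.3% lower. Slc7a5, the light chain of a large neutral amino acid exchanger, was at 238 FPKM in mammospheres and 78.1 FPKM in bulk cells (1.60), and Slc7a7, an exchanger of cationic amino acids, at 0.336 FPKM in mammospheres and 2.57 FPKM in bulk cells (-1.42). Slc7a1, the main cationic amino acid carrier, was at 41.9 FPKM in mammospheres and 35.5 FPKM in bulk cells (0.23). Slc7a2 was at 0.459 FPKM in mammospheres and 1.74 FPKM in bulk cells (-0.91), and Slc7a3 at 1.11 FPKM in mammospheres and 0.165 FPKM in bulk cells (0.85).

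Of 10 measured genes of ornithine, proline, creatine and the urea cycle, 1 was higher and 2 lower, with a median of -0.14 that was 0.05 after centring (2 higher after centring or with equal upper quartiles). Pycr1, the mitochondrial proline synthesis enzyme, was at 6.66 FPKM in mammospheres and 1.31 FPKM in bulk cells (1.73), and Aldh18a1, which makes the shared precursor of proline and ornithine, at 51.2 FPKM in mammospheres and 26.7 FPKM in bulk cells (0.91). Adc, a homologue of ornithine decarboxylase that binds antizyme, was at 1.03 FPKM in mammospheres and 11.9 FPKM in bulk cells (-2.67), and the creatine enzyme Gamt at 5.29 FPKM in mammospheres and 16.4 FPKM in bulk cells (-1.47). None of the 4 hypusine genes passed 2-fold. Eif5a, the translation factor whose lysine spermidine modifies, was at 599 FPKM in mammospheres and 778 FPKM in bulk cells (-0.38). Over the 6 lists, 5 of 47 genes were higher and 6 lower (median 0.02). In either direction that is 23.4% of these genes, beside 20.8% of all genes. After centring the split was 8 higher and 5 lower, and with equal upper quartiles 10 higher and 5 lower. The higher genes were thus 45.5% of those past the limit (61.5% after centring, 66.7% with equal upper quartiles), against 17.0% over all genes (29.7% after centring, 34.1% with equal upper quartiles). By the authors' calls the split went the other way, with 0 higher and 2 lower. These lists were chosen with earlier results of these data known, and the shares rest on few genes, so nothing is read from them.

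**Figure D4:**
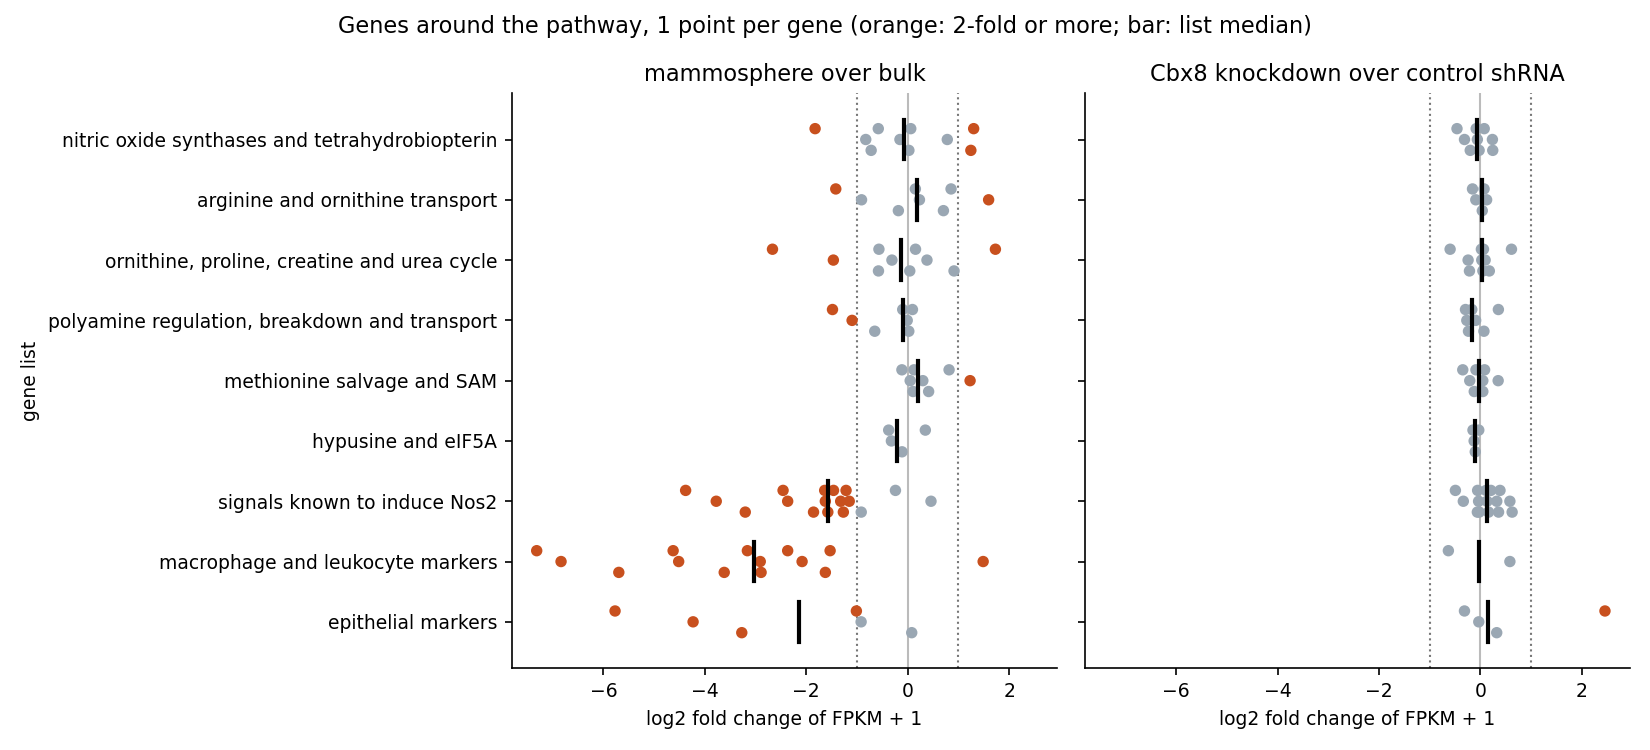
Log2 fold change of FPKM + 1 for each measured gene of the lists around the pathway, mammosphere over bulk on the left and Cbx8 knockdown over control shRNA on the right; orange points are at 2-fold or more (dotted lines) and black bars are list medians. On the left the signals known to induce Nos2 (median -1.57) and the leukocyte markers (median -3.03) lie far to the negative side, and on the right the single orange point is Krt14, at 2.46.

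In Cbx8 knockdown cells the measured genes of the pathway stood close to the control. None of the 7 was past 2-fold in either direction, and the largest absolute log2 fold change was that of Srm (-0.21). Of the 10685 genes measured, 0.299% were higher and 0.449% lower (0.749% in either direction), so a count of 0 among 7 is near the background. The median of the 7 was 0.01, beside -0.01 over all genes. By a q-value under 0.05 in the authors' deposited table, 0.14% of genes were higher and 0.0842% lower (0.225% in either direction), and none of the 7. In the authors' deposited table the unadjusted p-values of the 7 ran from 0.428 (Srm) to 0.959 (Odc1), so none was under 0.05 there, and each q-value was 0.999.

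Odc1 was at 94.8 FPKM in knockdown cells and 94.0 FPKM in control cells (0.01), beside a Myc transcript at 301 FPKM in knockdown cells and 511 FPKM in control cells (-0.76), so the ratio of Odc1 to Myc was 0.315 in knockdown cells and 0.184 in control cells. In the other table Odc1 to Myc was 0.365 in mammospheres and 0.259 in bulk cells. Since Myc is the denominator and Odc1 was nearly level in the knockdown table, the ratio there restates the Myc difference. The Myc values may include transgene reads. Amd1 was at 17.6 FPKM in knockdown cells and 17.3 FPKM in control cells (0.02), where it passed 51.3% of expressed genes in knockdown cells and 50.9% in control cells. Sat1 was at 111 FPKM in knockdown cells and 97.5 FPKM in control cells (0.19).

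Srm was at 150.2 FPKM in knockdown cells and 174 FPKM in control cells (-0.21), and Sms at 10.03 FPKM in knockdown cells and 11.6 FPKM in control cells (-0.19), so their ratio was 14.97 in knockdown cells and 14.98 in control cells. Asl was at 38.6 FPKM in knockdown cells and 44.5 FPKM in control cells (-0.20). Ass1 was low in both, at 1.69 FPKM in knockdown cells and 1.44 FPKM in control cells (0.14). Both directions occur among the 7 genes, with 4 positive and 3 negative values.

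Among 3995 gene symbols present in both tables, tested by the authors and at 5 FPKM or more in the higher library of each, the genes whose pair of log2 fold changes lay nearest to that of Odc1 were Acaa1a, Amd1, Top2b, Parl and Diap1. Likeness is the Euclidean distance over the 2 comparisons (4 libraries), and for Amd1 it was 0.01. Amd1 was already one of the genes chosen here, so its place is a description. Acaa1a, a peroxisomal thiolase, was at 16.1 FPKM in mammospheres and 26.2 FPKM in bulk cells, and at 24.3 FPKM in knockdown cells and 24.0 FPKM in control cells.

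None of the 43 genes of the 6 wider lists measured in the knockdown table passed 2-fold. Of all genes measured there 0.749% did so in either direction, so a count of 0 among 43 is near the background. Adc was nearest, at 2.36 FPKM in knockdown cells and 1.20 FPKM in control cells (0.61), followed by the proline oxidase Prodh, at 4.00 FPKM in knockdown cells and 6.57 FPKM in control cells (-0.60). Azin1 was at 53.7 FPKM in knockdown cells and 60.6 FPKM in control cells (-0.17), and Oaz1 at 20.9 FPKM in knockdown cells and 22.4 FPKM in control cells (-0.09). None of the 15 signals known to induce Nos2 passed 2-fold either, again near that background. Their median was 0.13, with 9 positive and 6 negative values. Cd14, the endotoxin co-receptor, was at 41.0 FPKM in knockdown cells and 27.1 FPKM in control cells (0.58). The lowest value was that of Il1r1, at 3.93 FPKM in knockdown cells and 5.94 FPKM in control cells (-0.49). Of the 14 leukocyte markers 3 had a row, summing to 65.0 FPKM in knockdown cells and 65.0 FPKM in control cells. Within that sum Cd68 was at 23.9 FPKM in knockdown cells and 37.6 FPKM in control cells (-0.63), on the other side from Cd14.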

How the data were processed

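Polyadenylated RNA from 4 libraries, 1 per group, was sequenced by the authors. Reads were handled with TopHat 1.4.0, Cufflinks 1.3.0, a Cuffdiff listed as 0.0.7 and FastQC 0.10.0 on build mm9, per the submitters' processing notes, with settings not given in the sources used here. FPKM values were computed and deposited by the authors in 2 tables of 2 libraries each. The same tables hold a p-value and a q-value by the authors, quoted only as theirs, and rows that the authors did not test carry a q of 1. The smallest FPKM were not multiples of a single-read value, so depth is unknown and no counting interval is given.

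A symbol was matched to rows whose comma-separated gene names hold it, taking the row with the highest mean FPKM. Rows with status OK or NOTEST and at least 1 FPKM in either library were counted at 2-fold on log2(FPKM + 1). With 1 library per group no test was made. The counting step was tested on simulated data. Promoter motifs were searched in 250 bases before RefSeq starts. The genes and the 10 lists beside them were chosen with earlier results of these data known. Named genes were up to 4 per list with the largest absolute fold change, and 5 most like Nos2 and Odc1. Epcam, Cdh1 and the keratin Krt18, Nos1, Nos3, Gch1, Slc7a1 and listed leukocyte genes are named beside them for their roles. Krt19, Spr and Pts were named after their values were seen, as members that differ from those named first. The values of 1 listed gene and of 1 further motif searched are not reported here. Alternatives were pseudocounts of 0.1 and 5, FPKM minimums of 0 and 5, fold limits of 1.5 and 4, centring, equal upper quartiles, status OK alone, summed rows and the authors' calls. Computation used Python 3.11.15, pandas 2.3.3 and numpy 2.4.6.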

Additional observations from a re-analysis of the deposited data

How the results depend on the processing

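No paired analysis was possible because each group has 1 library; for the same reason no replicate could be left out. Each log2 fold change of the 10 genes kept its sign under every alternative that gave it a value. Nos2 ranged from 2.11 to 3.31, Arg1 from -7.69 to -2.57, Ass1 from -3.11 to -1.76 and Sat1 from -1.11 to -0.80; Nos2, Arg1 and Ass1 stayed past 2-fold, Sat1 did so in 6 of 8 alternatives, and Arg2 passed it only with a pseudocount of 0.1 (-1.06). Counts of these genes lower in mammospheres were 5 at 1.5-fold, 1 among rows with status OK and 0 by the authors' calls, against 3; Arg1 and Ass1 are rows the authors did not test.

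For the wider lists in mammospheres, higher counts were 10 at 1.5-fold, 0 at 4-fold, 8 after centring, 10 with equal upper quartiles and 0 by the authors' calls, against 5. Lower counts were 3 with a pseudocount of 5, 10 at 1.5-fold, 1 at 4-fold, 2 with status OK and 2 by the authors' calls, against 6. In the knockdown comparison 1 gene was higher and 1 lower at 1.5-fold, against 0 and 0.

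All genes higher in mammospheres (411) numbered 668 and 143 with pseudocounts of 0.1 and 5, 1144 and 61 at 1.5-fold and 4-fold, 653 after centring, 811 with equal upper quartiles, 151 with status OK and 70 by the authors' calls. Those lower (2002) numbered 960 with a pseudocount of 5, 3567 at 1.5-fold, 643 at 4-fold, 654 with status OK and 411 by the authors' calls. In the knockdown comparison genes higher (32) numbered 88 and 14 with pseudocounts of 0.1 and 5, 224 and 8 at 1.5-fold and 4-fold and 15 by the authors' calls; those lower (48) numbered 114, 18, 233, 10 and 9 under the same settings. The shifts with pseudocounts, fold limits, status and the authors' calls follow from how each setting is built. Those with centring and equal upper quartiles depend on how 2 libraries without replicates are scaled to each other. Which scaling is nearer the truth was not tested. Without counts, the precision of low values such as Arg1 in mammospheres is unknown.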

Other observations

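Some genes around the pathway stood at very different levels in the 2 tables, which are separate Cuffdiff comparisons. The cause was not tested. Ahcy, which clears S-adenosylhomocysteine, was at 123 FPKM in mammospheres and 92.1 FPKM in bulk cells, but at 1.42 FPKM in knockdown cells and 1.80 FPKM in control cells. Oaz1 was at 154 FPKM in mammospheres and 243 FPKM in bulk cells, but at 20.9 FPKM in knockdown cells and 22.4 FPKM in control cells. Ddah1, which breaks down the methylated arginines that inhibit nitric oxide synthases, went the other way, at 1.08 FPKM in mammospheres and 1.05 FPKM in bulk cells against 11.5 FPKM in knockdown cells and 9.61 FPKM in control cells. These genes were picked after their values were seen. Ratios such as Odc1 to Oaz1 were therefore read within a table and not between the tables.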
